A study of Mus musculus with 32 samples.

Results

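Mitochondria make most of a cell's ATP with enzyme complexes of the inner membrane. Complex I takes electrons from NADH, complex III passes them through cytochrome c to complex IV, which reduces oxygen, and ATP synthase (complex V) uses the proton gradient that results. Nearly all of their subunits are encoded in the nucleus, and several complex IV subunits exist as a form found in most tissues and a second form of heart, muscle or brown fat. A lactating mammary gland makes milk fat, lactose and protein at a high rate, which costs ATP and NADPH, while the liver is rich in mitochondria at all times.

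The genes described here carry the symbols of these complexes in the array annotation: those starting with Nduf, Uqcr, Cox4 to Cox8 or Atp5, with cytochrome c (Cycs) and cytochrome c1 (Cyc1). The array held 69 of them among 8251 genes with a probe set of their own. Of these, 29 were subunits of complex I, 2 were assembly factors of complex I, 8 belonged to complex III including Cyc1, 1 was cytochrome c, 15 belonged to complex IV and 14 to ATP synthase. They were covered by 97 probe sets of a single gene, of which the brightest over all 32 arrays stood for each gene. Another 10 probe sets named several genes and were left out. Ndufa4, Cox4i2, Atp5b, Atp5g3 and Atp5if1 were not analysed here.

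RNA came from wild-type FVB mice, an inbred strain. Mammary gland on standard chow was sampled on pregnancy days 12 and 17 and on lactation days 1, 2 and 9, with 4 arrays each. Dams were fed chow until lactation day 5 and then a diet with 8% or 40% of its energy from soy oil for 5 days, and mammary gland was taken on lactation day 10, with 3 arrays per diet. Another 3 mammary arrays are titled 16% fat, for which the feeding is not stated, and 3 liver arrays come from the 8% diet. Groups follow the titles of the arrays, since the descriptions of the gland arrays titled 8% and 16% name 40% fat. Ages of the mice are not given. Each array was made from an individual tissue sample, which the labels do not tie to an animal, so p-values measure the spread between these samples. The tissue holds several cell types, so fewer cells of a type and less RNA per cell cannot be told apart. The values are GCRMA intensities, given here as log2, where a difference of 1 is a 2-fold change. Levels of different genes rest on different probes and were not set against each other.

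Promoters are shown for 3 genes: Uqcr11 and Atp5l, which were lower at lactation day 2 than at pregnancy day 17, and Ndufb8, which was higher. Each window runs from 250 bases before to 50 after the start of the gene in the RefSeq annotation of GRCm38.p6, on the minus strand, and capitals mark the core motifs of factors known for their sites at mitochondrial genes. The motifs searched on both strands were the NRF1 core GCGCATGC, the ETS core CCGGAAG (the family of GABP) and the YY1 core AAGATGGC. The windows lie at chr10:80406772-80407071 (Uqcr11), chr9:44920693-44920992 (Atp5l) and chr19:44555393-44555692 (Ndufb8).
Uqcr11: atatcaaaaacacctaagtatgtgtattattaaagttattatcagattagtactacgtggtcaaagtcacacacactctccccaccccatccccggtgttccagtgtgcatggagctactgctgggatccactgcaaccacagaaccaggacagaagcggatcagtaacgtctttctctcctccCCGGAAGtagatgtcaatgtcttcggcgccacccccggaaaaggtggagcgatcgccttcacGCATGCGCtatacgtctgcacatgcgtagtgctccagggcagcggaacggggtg
Atp5l: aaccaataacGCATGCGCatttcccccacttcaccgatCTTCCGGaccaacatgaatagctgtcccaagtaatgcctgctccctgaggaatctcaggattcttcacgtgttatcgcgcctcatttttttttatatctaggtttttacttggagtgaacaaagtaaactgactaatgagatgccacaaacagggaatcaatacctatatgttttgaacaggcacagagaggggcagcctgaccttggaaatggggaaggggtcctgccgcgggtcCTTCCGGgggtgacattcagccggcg
Ndufb8: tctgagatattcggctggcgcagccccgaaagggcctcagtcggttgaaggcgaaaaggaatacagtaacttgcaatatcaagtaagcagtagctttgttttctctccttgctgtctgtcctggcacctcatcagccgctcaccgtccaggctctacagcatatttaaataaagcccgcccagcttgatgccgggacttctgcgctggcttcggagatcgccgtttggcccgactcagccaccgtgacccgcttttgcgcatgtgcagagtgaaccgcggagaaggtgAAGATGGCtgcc
Of the 69 genes 56 had a window, 61 windows in all. The NRF1 core stood in 10 of them (16.4%), against 2.71% of all 32851 windows. The ETS core stood in 14 (23.0%, against 8.86%) and the YY1 core in 8 (13.1%, against 2.75%). Among the 17 genes with a window that were lower at lactation day 2 than at pregnancy day 17, the NRF1 core stood in 4, the ETS core in 7 and the YY1 core in 2. Among the 24 tested genes with a window that were not called, these numbers were 4, 4 and 2. A match describes the letters in the window and is no evidence of binding, and the numbers by call are small.

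Arrays within a group correlated at 0.987 to 0.996 over all probe sets, and the median intensity of an array lay between 16.1 and 21.5. Labels matched the tissues: the summed intensity of 10 milk and secretory alveolar genes was 92.7 to 101 in liver and at least 243465 on every day-10 gland array, and that of 9 hepatocyte genes was at least 118064 in liver. Over the time course the sum of the secretory alveolar genes was 100828 to 133489 on pregnancy day 12 and 261821 to 278847 on lactation day 2. On the same days the sum for 8 fibroblast markers was at least 13441 and at most 6298, and that for 9 adipocyte markers at least 9295 and at most 5306. One array, lactation day 9 replicate 1, stood apart, with erythroid genes at 564 against 4002 to 8952 on the other day-9 arrays and the lowest median of the 69 genes (8.54). The median of 29 cytosolic ribosomal protein genes moved with the stages too, from 11.77 to 12.06 on pregnancy day 12 to 11.08 to 11.24 on lactation day 9, and it was 10.54 to 10.62 in liver. The part of these shifts in the results below was not tested.

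The median log2 intensity over the 69 genes was 9.50 ± 0.04 on pregnancy day 12 (mean ± SD, n = 4), 9.24 ± 0.09 on day 17, 9.18 ± 0.11 on lactation day 1, 9.05 ± 0.14 on day 2 and 8.72 ± 0.14 on day 9. All 4 arrays of lactation day 9 lay below all 4 of pregnancy day 17, while lactation day 1 overlapped with both of its neighbours. Complex I followed this course, from 9.24 ± 0.10 on pregnancy day 17 to 8.62 ± 0.14 on lactation day 9, and so did complex III, from 10.08 ± 0.13 to 9.42 ± 0.14. For complex I this is in part the same number read again: on all 4 arrays of lactation day 2 its median equalled that of the 69 genes. The median of ATP synthase genes stayed between 9.77 and 9.93 on pregnancy day 17 and between 9.80 and 9.89 on lactation day 1, and was 9.46 to 9.66 on day 2. The complex IV median showed no such course, with 7.55 to 8.79 on pregnancy day 17 and 7.76 to 7.88 on lactation day 9. On each array it is the reading of a single one of the 15 genes. Cox5a, Cox6a2, Cox6b1, Cox8a and Cox8c were too dim to be tested, so this reading sits low among the others and does not stand for the complex. The median of the 69 genes is also the reading of a single gene on each array. Its lower value on pregnancy day 17 than on day 12 does not stand for the genes. Of the 56 tested, 28 had a change below 0 over that step, and the median change was 0.006. These medians describe the arrays, and the tests follow gene by gene.

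**Figure D1:**
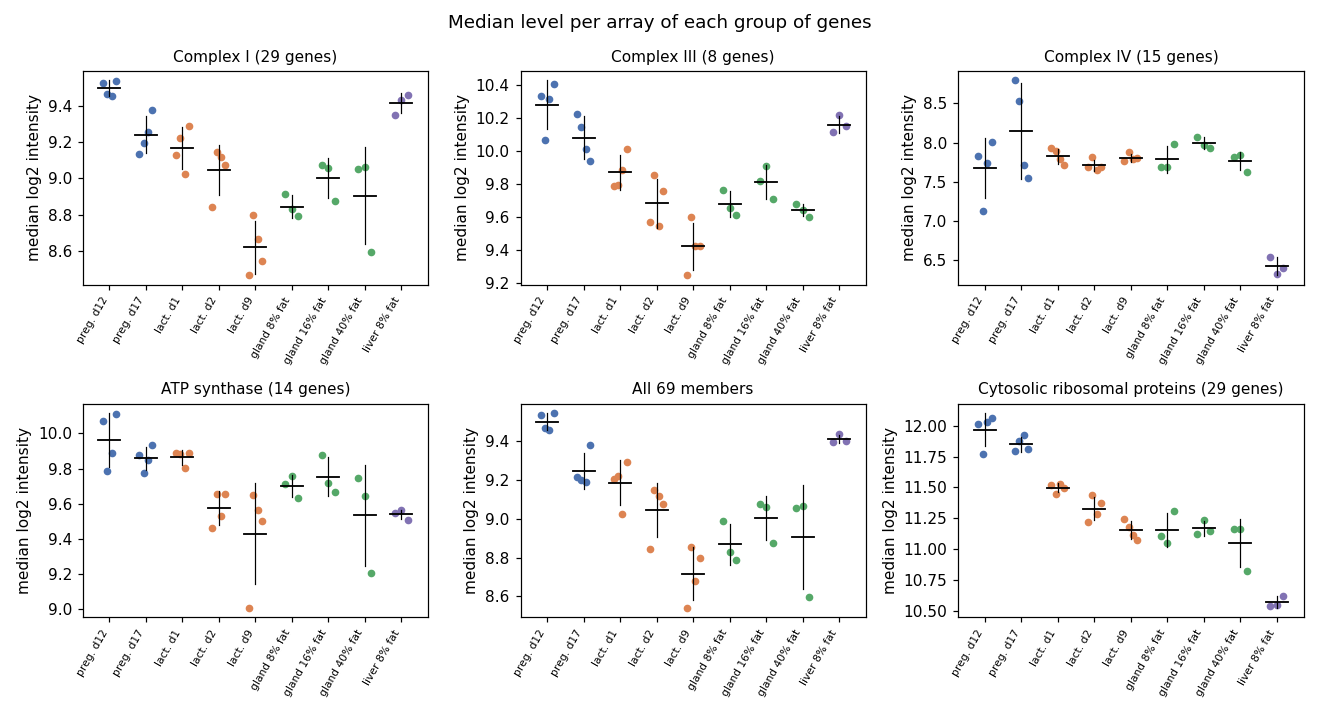
Median log2 intensity on each array (points) of the genes of complex I, III, IV and ATP synthase, of all 69 genes and of 29 cytosolic ribosomal protein genes, with the group mean (horizontal line) and SD (vertical line), 4 arrays per stage and 3 per diet or tissue. Complex I and III and the ribosomal proteins were lower on lactation day 9 than on pregnancy day 17 without overlap, and liver had the lowest complex IV and ribosomal medians. The complex IV median is the reading of a single gene on each array. It takes in genes too dim to be tested and does not give the level of the complex.

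Genes were tested with limma where the highest group mean reached a log2 intensity of 4.22, the median of all values, and a call needed an adjusted p (Benjamini-Hochberg, over all probe sets tested) under 0.05. In the time course 56 of the 69 passed this line. The other 13 (Atp5g1, Atp5j2, Atp5k, Atp5pb, Cox5a, Cox6a2, Cox6b1, Cox8a, Cox8c, Ndufa10, Ndufa12, Ndufc2 and Ndufs4) stayed at group means of at most 4.18 and have no call. Their values drifted with the arrays: from pregnancy day 17 to lactation day 9 all 13 differences were above 0, from 0.01 to 0.46. Small rises of dim genes are to be read beside that drift. The comparisons of the time course share arrays (pregnancy day 17 and lactation day 2 each enter several), so their calls are not independent of each other.

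Within pregnancy the complexes did not move as a block. Between days 12 and 17, 7 of 56 genes rose and 10 fell, against 18.4% and 26.7% of all 7189 probe sets tested (45.1% in either direction), so both shares (12.5% and 17.9%) were below the background. Of the 10 that fell, 7 were complex I genes. The median change was 0.06 over the 69 genes and -0.02 over all probe sets tested.

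Ndufb3, a subunit of the membrane arm of complex I, measured 8.89, 9.16, 9.34 and 8.92 on pregnancy day 12 and 8.31, 8.35, 8.39 and 8.35 on day 17. It fell by 0.73 on the log2 scale (SE 0.11, limma adjusted p = 3.14e-05), without overlap. Ndufs1, the largest iron-sulfur subunit of the arm that accepts electrons from NADH, fell by 0.69 (SE 0.16, limma adjusted p = 0.00193), and Ndufb10 fell by 0.44. Ndufab1, the mitochondrial acyl carrier protein, fell by 0.46 (limma adjusted p = 0.0158), a call lost without pregnancy day 17 replicate 2. Ndufa2 was the only complex I gene that rose, by 0.33, a call lost with the replicate number as a block, without pregnancy day 17 replicate 1, 2 or 4, without pregnancy day 12 replicate 1, 2 or 3, and without lactation day 9 replicate 1.

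In complex III the core protein gene Uqcrc2 measured 11.27, 11.28, 11.25 and 11.19 on day 12 and 11.77, 12.09, 12.15 and 11.94 on day 17. It rose by 0.74 (SE 0.12, limma adjusted p = 9.63e-05), while its partner Uqcrc1 fell by 0.39 with overlapping groups, a call lost without pregnancy day 17 replicate 3 or pregnancy day 12 replicate 2. Uqcrq rose by 0.36, a call lost without pregnancy day 17 replicate 1, 2 or 4 or pregnancy day 12 replicate 2. Uqcr10 fell by 0.31, a call lost without pregnancy day 17 replicate 3 or 4 or pregnancy day 12 replicate 1, 3 or 4. In complex IV the isoform 4 subunit found in most tissues, Cox4i1, rose by 0.83 (SE 0.11, limma adjusted p = 4.42e-06), from 7.84 ± 0.17 to 8.67 ± 0.20 (SD, n = 4), and Cox7a2l rose by 0.34, a call lost without pregnancy day 17 replicate 1, 2 or 3 or pregnancy day 12 replicate 2 or 3. Cox8b fell by 0.43 (limma adjusted p = 0.0389), a call lost without pregnancy day 17 replicate 1, 3 or 4 or pregnancy day 12 replicate 2 or 4, and with the block. In ATP synthase, Atp5d of the central stalk and Atp5l, subunit g of the membrane part, each rose by 0.43, and none of the 10 tested genes fell.

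The count of falls dropped from 10 to 5 without pregnancy day 12 replicate 2 and to 6 without replicate 4, and the count of rises from 7 to 4 without pregnancy day 12 replicate 2 or pregnancy day 17 replicate 1. With the ribosomal medians of the arrays set equal, 13 rose and 3 fell, and after quantile normalization 8 rose and 12 fell.

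Parturition brought few calls. Between pregnancy day 17 and lactation day 1, 4 genes rose and 6 fell, against 9.32% and 14% of all probe sets (23.3% in either direction), and the median change of 0.03 over the 69 genes equalled that of all probe sets tested. The calls were spread over the complexes. Cox7a2l, which binds complexes III and IV in respiratory supercomplexes, showed the largest fall.

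Cox7a2l measured 8.95, 9.06, 9.07 and 8.87 on pregnancy day 17 and 8.16, 8.15, 7.79 and 7.82 on lactation day 1. The groups did not overlap, and the fall of 1.01 (SE 0.13, limma adjusted p = 1.08e-05) is a 2-fold change. Cox4i1 fell by 0.75, to 7.92 ± 0.05 (SD, n = 4), and its 4 values (7.89 to 7.99) lay within those of pregnancy day 12 (7.70 to 8.09). Ndufa7, an accessory subunit of the peripheral arm of complex I, fell by 0.62 (SE 0.10, limma adjusted p = 0.000142). Uqcrh, the hinge protein of complex III that contacts cytochrome c1, fell by 0.37 (limma adjusted p = 0.0201), a call lost without pregnancy day 17 replicate 1 or 2. Ndufv1 fell by 0.36 and Atp5mpl, a small ATP synthase subunit, by 0.27, and both calls were lost with the replicate number as a block. The Ndufv1 call was also lost without lactation day 1 replicate 2, 3 or 4 or pregnancy day 17 replicate 1, 2 or 4, and the Atp5mpl call without lactation day 1 replicate 1, 2 or 4 or pregnancy day 17 replicate 1, 2 or 3.

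Ndufaf4, an assembly factor of complex I, rose by 0.61 (SE 0.14, limma adjusted p = 0.00414), from 4.97 ± 0.23 to 5.58 ± 0.30 (SD, n = 4) with overlapping groups. Cox7b, a small complex IV subunit, rose by 0.56, a call lost without pregnancy day 17 replicate 2. Atp5o, the oligomycin sensitivity protein at the top of the peripheral stalk of ATP synthase, rose by 0.47, and Cox7a2, the form of subunit 7a found in most tissues, by 0.41. The 6 falls became 3 without pregnancy day 17 replicate 1 or 2. With equal ribosomal medians 36 genes rose and 3 fell, since that scaling raised the median of all probe sets tested from 0.03 to 0.40, and after quantile normalization 4 rose and 5 fell.

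By lactation day 2 falls outnumbered rises. Against pregnancy day 17, 22 of 56 genes were lower and 4 higher, where 24.5% of all probe sets were lower and 25.5% higher (49.9% in either direction). Complex III and ATP synthase gave many of the falls, with 4 of 8 and 6 of 10 tested genes lower, next to 8 of 25 in complex I and 3 of 10 in complex IV. Of these falls, Atp5g2, Atp5md, Atp5e, Atp5c1 and Uqcrc2 were read by probe sets without the plain name that marks probes for a single transcript. Of the 40 tested members with that name 12 were lower, and of the 16 others 10. The share of members that were lower was 39.3%. Bright probe sets fell more often in general: among the 3893 whose highest group mean reached the 75th percentile of all values, 36% were lower, and of the 52 members that passed this line 40.4% were.

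In ATP synthase the largest fall was in Atp5g2, one of the genes for the c subunit of the rotating ring. It measured 7.42, 7.15, 6.37 and 6.56 on pregnancy day 17 and 5.29, 5.37, 4.77 and 4.54 on lactation day 2, a fall of 1.88 (SE 0.32, limma adjusted p = 0.000120). The groups did not overlap, but the arrays of a group spread over about 1 log2 unit. Atp5md, a small subunit found at the contact of ATP synthase dimers, measured 11.84, 11.95, 11.95 and 11.94 before birth and 10.73, 11.22, 10.75 and 10.72 on day 2. It fell by 1.07 (SE 0.12, limma adjusted p = 1.11e-06), and it had been at 11.83 to 12.09 on lactation day 1, so its fall lay between lactation days 1 and 2. Atp5e of the central stalk fell by 0.68, Atp5l by 0.62, Atp5mpl by 0.48 and Atp5c1, the gamma subunit, by 0.39. Atp5o was 0.41 higher (SE 0.13, limma adjusted p = 0.0119), the only ATP synthase gene to rise.

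In complex IV, Cox7a2l fell by 1.19 (SE 0.13, limma adjusted p = 6.78e-07), to 7.64 to 8.12, and Cox4i1 fell by 0.90 (SE 0.11, limma adjusted p = 1.97e-06). Cox6c, a small membrane subunit, fell by 0.66. In complex III the small subunits Uqcrh, Uqcr11 and Uqcr10 fell by 0.63, 0.59 and 0.55, and Uqcrc2 fell by 0.53. Uqcr11, whose promoter is printed above, measured 9.30, 9.17, 9.02 and 9.33 before birth and 8.36, 8.79, 8.59 and 8.71 on day 2.

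In complex I the falls were led by accessory subunits of the peripheral arm. Ndufa7 fell by 0.82, Ndufa5 by 0.75 and Ndufa2 by 0.73, and the assembly factor Ndufaf1 fell by 0.81, from 5.12 ± 0.23 to 4.31 ± 0.34 (SD, n = 4). A second, dimmer probe set of Ndufaf1 was higher on day 2 by 0.22, so its direction is uncertain. Ndufb8, a subunit of the membrane arm, measured 9.94, 9.82, 10.23 and 10.46 before birth and 10.52, 10.61, 10.43 and 10.79 on day 2. It rose by 0.47 (SE 0.15, limma adjusted p = 0.0129) with overlapping groups, and the call was lost without pregnancy day 17 replicate 2. Ndufaf4 was 0.43 higher, a call lost if pregnancy day 17 replicate 1 or lactation day 2 replicate 2 was left out, and Cox7a1 was 0.30 higher at a level of 4.27 ± 0.01 (SD, n = 4), close to the line of 4.22. Its pregnancy mean of 3.97 lay under the line, so it was tested only through the lactation groups where it is high, and its place among the 4 rises follows in part from that choice.

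**Figure D2:**
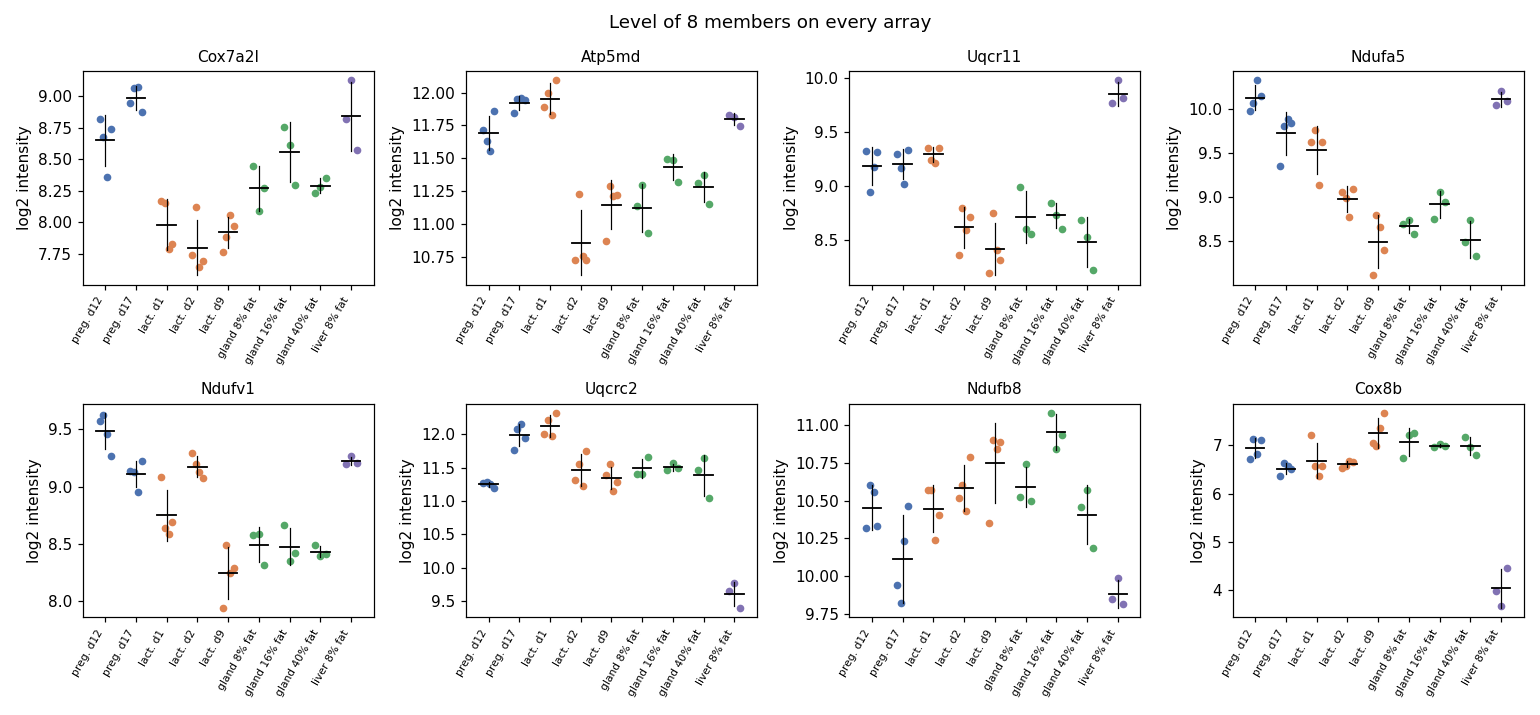
Log2 intensity of 8 genes on every array (points) with group mean and SD, 4 arrays per stage and 3 per diet or tissue. Cox7a2l stepped down between pregnancy day 17 (8.87 to 9.07) and lactation day 1 (7.79 to 8.16), Atp5md and Uqcr11 between lactation days 1 and 2, and Ndufv1 between days 2 and 9, and Cox8b was far lower in liver (3.67 to 4.46) than in any gland array.

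The step from lactation day 1 to day 2 held 13 falls and 2 rises, against 8.18% and 6.11% of all probe sets, and 5 of the 13 were ATP synthase genes. Atp5md fell by 1.10 (SE 0.12, limma adjusted p = 3.63e-05), without overlap, and Uqcr11 fell by 0.68 (SE 0.13, limma adjusted p = 0.00230), from 9.29 ± 0.07 to 8.61 ± 0.19 (SD, n = 4). Cox6c fell by 0.73 (SE 0.15, limma adjusted p = 0.00506), Uqcrc2 by 0.67 and Cox7b by 0.58, where the Cox7b call was lost without lactation day 2 replicate 1 or lactation day 1 replicate 2, 3 or 4. Atp5g2 fell by 1.17 with overlapping groups (limma adjusted p = 0.0223), and this call was lost on leaving out lactation day 2 replicate 3 or 4 or lactation day 1 replicate 3 or 4. Among bright probe sets 14.3% fell and 6.14% rose, and of the 52 members past that line 23.1% fell (12 genes) and 2 rose. The log2 difference between the 3' and 5' actin control probe sets, a measure of RNA quality, was 1.44 to 1.65 on day 1 and 1.23 to 1.35 on day 2. That of Gapdh overlapped, with -0.19 to 0.15 and -0.13 to 0.25. The part of RNA quality in these calls was not tested.

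The 2 genes that rose were Uqcrc1, by 0.49, and Ndufv1, the flavoprotein through which NADH enters complex I, by 0.43. The Uqcrc1 call was lost without lactation day 2 replicate 2 or 4 or lactation day 1 replicate 2 or 3. The Ndufv1 call was lost without lactation day 2 replicate 1, 2 or 3 or lactation day 1 replicate 2, 3 or 4. The count of falls was 7 without lactation day 2 replicate 1, lactation day 2 replicate 3 or lactation day 1 replicate 4. It was 7 with equal ribosomal medians, where 3 rose, and 9 after quantile normalization, where 2 rose.

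Between lactation days 2 and 9, 14 genes fell and 5 rose, against 16.2% and 8.82% of all probe sets. The falls lay mostly in complex I, with 9 of its 25 tested genes. Among bright probe sets 29% fell and 9.63% rose, and of the 52 members past that line 28.8% fell and 3 genes rose, so the share of falls was that of bright probe sets in general. The rises included 2 complex IV genes with a restricted tissue pattern.

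Ndufv1 measured 9.29, 9.20, 9.13 and 9.08 on day 2 and 7.94, 8.49, 8.25 and 8.29 on day 9. It fell by 0.93 (SE 0.13, limma adjusted p = 2.52e-05), without overlap, after 8.59 to 9.08 on day 1. Ndufs1 fell by 0.62 with overlapping groups (limma adjusted p = 0.00757), and Ndufb6 by 0.56. Cyc1, the subunit of complex III that hands electrons to cytochrome c, fell by 0.55 (SE 0.11, limma adjusted p = 0.000700), from 11.67 ± 0.10 to 11.12 ± 0.04 (SD, n = 4). Uqcrc1 fell by 0.54. Cox5b, the zinc-binding subunit of complex IV, fell by 0.57 (SE 0.11, limma adjusted p = 0.000999).

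Cox6b2, known as the testis form of subunit 6b, rose by 1.03 (SE 0.27, limma adjusted p = 0.00832), from 7.69 to 7.94 on day 2 to 8.80 to 8.96 on day 9. The name of its probe set, like that of Cox8b, marks probes for which some design rules were dropped. Cox8b, the form of subunit 8 of rodent heart, muscle and brown fat, rose by 0.65 (SE 0.16, limma adjusted p = 0.00616), from 6.61 ± 0.07 to 7.26 ± 0.31 (SD, n = 4). Ndufaf1 rose by 0.74, Ndufa1, a small membrane subunit of complex I, by 0.65, and Ndufv3, an accessory subunit beside the flavoprotein, by 0.43, a call lost without lactation day 9 replicate 3 or 4 or lactation day 2 replicate 1. The count of falls depended on single arrays: it was 8 without lactation day 9 replicate 1, the array that stood apart, 22 without lactation day 9 replicate 2, and 9 without lactation day 2 replicate 2 or 4. With equal ribosomal medians 13 rose and 4 fell, and after quantile normalization 11 rose and 4 fell, so of these 3 scales falls outnumbered rises on the deposited one only.

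Across the whole interval from pregnancy day 17 to lactation day 9, 35 of 56 genes fell and 7 rose, against 31.9% and 32.2% of all probe sets (64% in either direction). The falls made up 62.5% of the tested members. They covered 18 of 25 complex I genes, 5 of 8 complex III genes and 8 of 10 ATP synthase genes. Complex IV was split, with 4 of 10 lower and 3 higher. Among bright probe sets 48.4% fell, next to 67.3% of the 52 members past that line. The median change was -0.30 over the 69 genes, 0.01 over all probe sets tested and -0.35 over the bright ones.

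In complex I, Ndufa5, an accessory subunit of the peripheral arm, measured 9.35, 9.81, 9.89 and 9.84 on pregnancy day 17 and 8.12, 8.80, 8.66 and 8.40 on lactation day 9. It fell by 1.23 (SE 0.16, limma adjusted p = 2.81e-06), a 2.35-fold change. Ndufa2 fell by 1.04 (SE 0.13, limma adjusted p = 2.05e-06), from 9.40 to 9.97 to 8.31 to 8.85. Both genes lay lower on every day-9 array than on any array of pregnancy day 17. Ndufa3, Ndufb6 and Ndufv1 fell by 0.89, 0.87 and 0.87, and Ndufs1 by 0.53.

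In complex III the falls were Uqcr11 by 0.79, Uqcrh by 0.71, Uqcrc2 by 0.65, Uqcr10 by 0.64 and Cyc1 by 0.49. With equal ribosomal medians these changes were -0.09, -0.01, 0.06, 0.06 and 0.21 for Uqcr11, Uqcrh, Uqcrc2, Uqcr10 and Cyc1, and none was called lower. Cytochrome c itself, Cycs, the mobile carrier between complexes III and IV, was not called in any stage comparison. Its levels were 5.73 to 7.08 on pregnancy day 17 and 5.65 to 6.49 on lactation day 9. In ATP synthase Atp5g2 fell by 1.50 (SE 0.32, limma adjusted p = 0.000494), to 4.89, 6.15, 5.31 and 5.17. Atp5md fell by 0.78, and the catalytic alpha subunit gene Atp5a1 fell by 0.45 (SE 0.11, limma adjusted p = 0.00168) with overlapping groups, a change that turned to 0.25 with equal ribosomal medians. Atp5o and Atp5d were not called.

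In complex IV, Cox7a2l and Cox4i1 remained low, with falls of 1.07 (SE 0.13, limma adjusted p = 1.03e-06) and 0.79 (SE 0.11, limma adjusted p = 3.90e-06). The genes that rose were Cox8b by 0.75 (SE 0.16, limma adjusted p = 0.000602), Cox6b2 by 0.64 (limma adjusted p = 0.0465) and Cox7a1, the heart and muscle form of subunit 7a, by 0.51, where Cox7a1 again counts among the rises with a pregnancy mean under the line. The Cox6b2 call was lost without any single one of the 4 day-9 arrays or without pregnancy day 17 replicate 3 or 4, since pregnancy day 17 held 9.02, 8.53, 7.71 and 7.55. In complex I, Ndufb8 rose by 0.63 (SE 0.15, limma adjusted p = 0.000995) with overlapping groups, Ndufa1 by 0.62 and Ndufv3 by 0.55. The assembly factor Ndufaf4 rose by 0.35, a call lost if day-9 replicate 1, 2 or 3 or pregnancy day 17 replicate 1, 2 or 4 was left out.

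**Figure D3:**
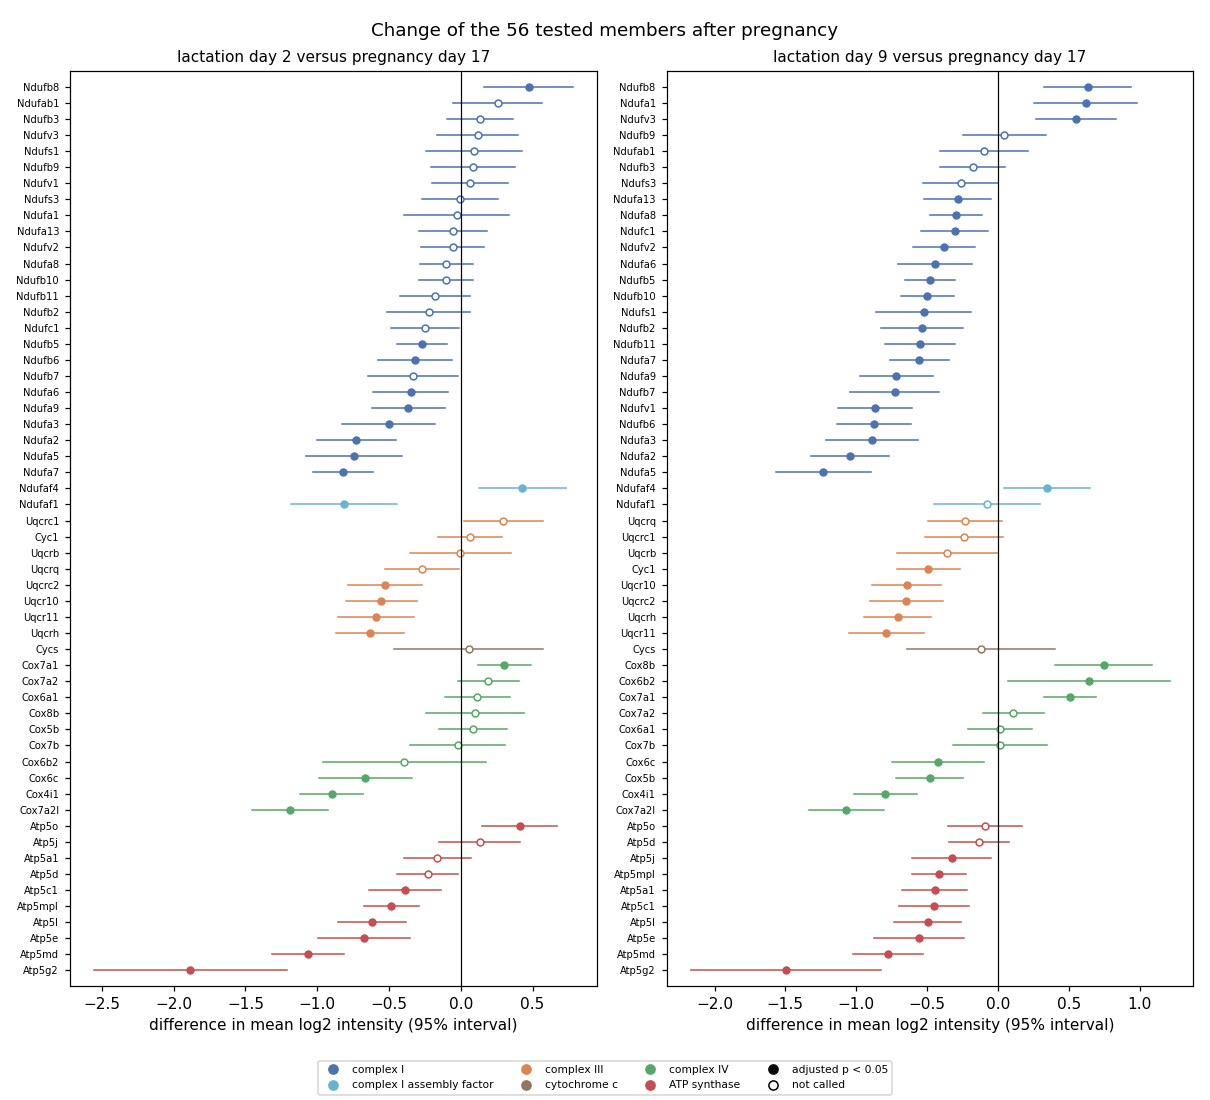
Change in mean log2 intensity from pregnancy day 17 to lactation day 2 (left) and to lactation day 9 (right) for the 56 tested genes, grouped and coloured by complex, with 95% intervals (bars). Filled points have an adjusted p under 0.05: 22 genes were lower and 4 higher on day 2, and 35 lower and 7 higher on day 9.

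The counts of falls depended on the scale used between arrays. Ribosomal protein genes fell over the same days, and setting their medians equal moved the median of all probe sets tested to 0.60 between pregnancy day 17 and lactation day 2 and to 0.76 between pregnancy day 17 and lactation day 9. The median of the 56 tested genes then turned from -0.20 to 0.32 on day 2 and from -0.43 to 0.27 on day 9. On both of these scales the members lay below the median of all probe sets. As deposited, the median of bright probe sets was -0.15 on day 2 and -0.35 on day 9, nearer to that of the members. Counts followed: 32 higher and 5 lower on day 2, and 28 higher and 4 lower on day 9. After quantile normalization they were 5 higher and 21 lower on day 2 and 9 higher and 22 lower on day 9. Of the 22 falls on day 2, equal ribosomal medians turned the sign of 7 and left 5 called, and quantile normalization turned 0. Of the 35 falls on day 9, equal ribosomal medians turned the sign of 22 and left 4 called, and quantile normalization turned 3.

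Some calls held on all 3 scales. On lactation day 1 these were the falls of Cox4i1, Cox7a2l and Ndufa7 and the rises of Atp5o, Cox7b and Ndufaf4. On lactation day 2 they were the falls of Atp5g2, Atp5md, Cox4i1, Cox7a2l and Ndufa7 and the rises of Atp5o, Ndufaf4 and Ndufb8. On lactation day 9 they were the falls of Atp5g2, Cox7a2l, Ndufa2 and Ndufa5 and all 7 rises. Within pregnancy, 6 of the 7 rises and 3 of the 10 falls held on all 3. Equal ribosomal medians moved every gene of a comparison by the same amount, upward in each of these comparisons. A rise could therefore not turn on that scale, whereas a fall had to exceed the shift, so holding there says little for the rises. The rises of Cox6b2 and Ndufaf4 on lactation day 9 still depended on single arrays, as given above.

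**Figure D4:**
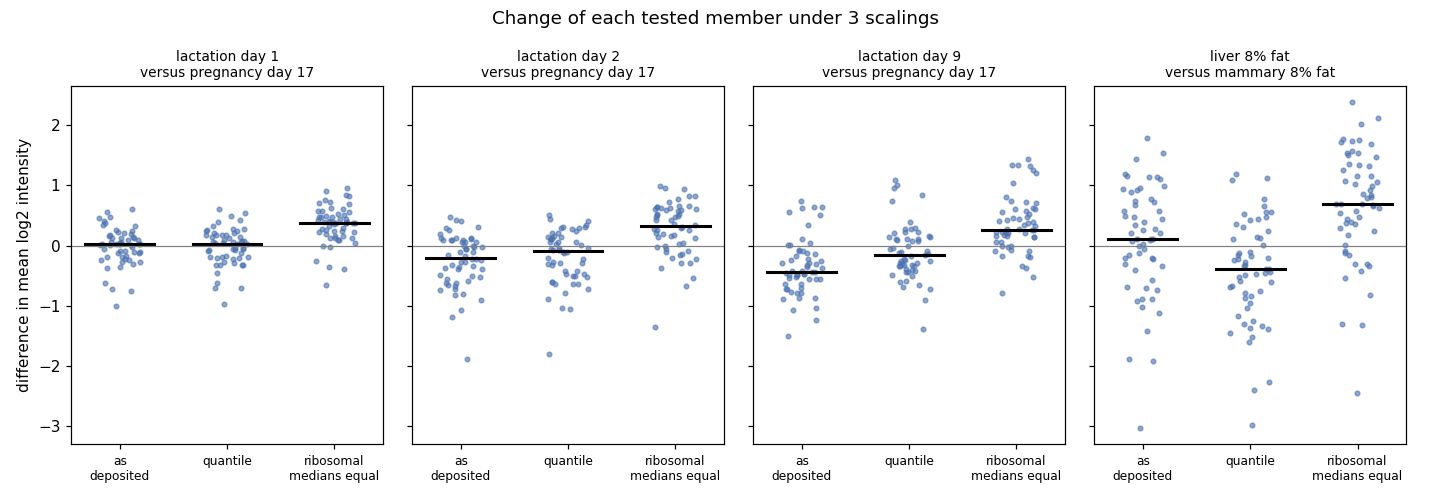
Change in log2 intensity of each tested gene (points) in 4 comparisons under 3 scales between arrays: as deposited, after quantile normalization, and with the medians of 29 ribosomal protein genes set equal, with the median over the genes as a bar. In the comparison of lactation day 9 with pregnancy day 17 the bar moved from -0.43 to -0.15 and 0.27, while the lowest points stayed below 0 on each scale.

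Complex IV subunits 6a, 7a and 8 each have a form of most tissues and a form of heart and muscle, and each probe set was read against the line of testing, not against its counterpart. Cox6a2, the muscle form of subunit 6a, was at 1.95 to 2.42 on every gland array, below the line, and the probe set of Cox6a1, the form of most tissues, was at 12.17 to 12.94. Cox7a1 was at 3.85 to 4.78, around the line, and Cox7a2 at 10.68 to 11.54. Cox8b, a muscle and brown fat form, was well above the line at 6.36 to 7.66, and Cox8a, the form of most tissues, read 2.43 to 3.10, below it. The name of the Cox8b probe set marks probes for which some design rules were dropped.

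Marker sums differed over the same interval. Brown adipocyte markers, a list that includes Cox7a1 and Cox8b themselves, summed to 1139 to 1513 on pregnancy day 17 and 11079 to 12999 on lactation day 9. Their median log2 intensity was 4.30 to 4.88 and 4.61 to 5.03 on these days, with overlap, so the sum followed the brightest gene. Cidea led that list with a rise of 3.34, and Cidea is also known as a milk fat gene of the lactating gland. White adipocyte markers went the other way, with 7 of 9 lower and 1 higher on lactation day 9, and all 8 fibroblast markers were lower with a median of -2.06. Skeletal muscle markers summed to 106 to 177 over all stage arrays, over 13 genes. The part of these cells in the changes of the respiratory genes was not tested.

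Dietary fat gave no calls among these genes. Between 40% and 8% fat, 0 of 56 genes were called in either direction by limma (0.0463% of 6483 probe sets were called higher and 0.0463% lower, 0.0925% in all), and between 16% and 8% fat 0 were called (0% of probe sets in each direction). At an unadjusted p under 0.05, 2 genes differed between 40% and 8% fat, against 8.3% of all probe sets, and 9 between 16% and 8% fat, against 12.3%. The 2 were Atp5mpl and Cox7a1, both with lower means on 40% fat, and of the 9 the 16% diet had the higher mean in 8. Cox7a1 measured 4.78, 4.55 and 4.70 on 8% fat, 4.45, 4.51 and 4.38 on 16% and 4.31, 4.21 and 4.36 on 40%, without overlap between 8% and 40%, but the smallest adjusted p of any member was 0.233 for 40% against 8% fat and 0.173 for 16% against 8%.

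The precision of the diet comparison limits what 0 calls can show. The median half-width of a 95% interval was 0.28 in log2, and the differences between 40% and 8% fat ran from -0.42 (Uqcr10) to 0.50 (Cox6b2). The widest intervals reached -0.95 and 1.01, close to a 2-fold change. Of genes called over the stages, Cox7a2l read 8.45, 8.09 and 8.27 on 8% fat and 8.23, 8.28 and 8.35 on 40%, and Atp5md 11.13, 11.30 and 10.93 on 8% and 11.31, 11.37 and 11.15 on 40%. Atp5g2 was at 6.57 ± 0.21 on 8% fat and 6.56 ± 0.50 on 40% (SD, n = 3), and Cox6b2 read 7.92, 8.39 and 8.72 on 8% and 8.75, 8.51 and 9.27 on 40%. In all 4 genes the groups overlapped. One array of the 40% diet, replicate 3, had a median over the 69 genes of 8.60, below the other 2 of its group, the higher of which was 9.06.

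Liver and gland of dams on 8% fat differed gene by gene, and in both directions. Of 57 tested genes 26 were higher in liver and 16 lower, against 39.7% and 40.3% of all 6897 probe sets (80% in either direction), and the median over the 69 genes was 0.03. In complex I 14 of 26 were higher in liver and 5 lower, in complex III 4 of 8 were higher and 1 lower, and both assembly factors were higher. In complex IV 6 of 10 were lower in liver and 2 higher, and ATP synthase was split with 3 of 10 higher and 4 lower. Among bright probe sets 49.8% were higher in liver and 34.6% lower, and of the 54 members past that line 46.3% and 25.9% were. The shares of complex I and complex III higher in liver were thus near that of bright probe sets. Labels do not tell whether the organs came from the same dams, and the test took them as independent.

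In complex I, Ndufa6, an accessory subunit of the peripheral arm, measured 9.99, 10.31 and 10.22 in liver and 8.41, 8.43 and 8.30 in the gland. It was 1.79 higher in liver (SE 0.11, limma adjusted p = 2.58e-06), a 3.47-fold difference. Ndufa5 was 1.44 higher (limma adjusted p = 3.64e-06) and Ndufs3, a core subunit of the arm that reaches into the matrix, 1.18 higher. Ndufs4, an accessory subunit of the same arm, read 4.78 to 5.29 in liver and 3.85 to 3.91 in the gland, where it stayed under the line of testing. It passed only through liver, where it is high, so its place among the 14 complex I genes higher in liver follows in part from that choice. The assembly factor Ndufaf1 was 1.54 higher in liver (SE 0.10, limma adjusted p = 2.93e-06) by its brightest probe set, and its second probe set was lower in liver by 0.43. Ndufa1 was lower in liver, with a difference of -1.41 (SE 0.23, limma adjusted p = 0.000715).

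Complex III differed within its core: Uqcrc2 read 9.65, 9.76 and 9.40 in liver and 11.41, 11.41 and 11.66 in the gland. Its difference was -1.89 (SE 0.13, limma adjusted p = 4.45e-06), 3.7-fold lower in liver, while Uqcrc1 read 9.28 to 9.42 and 9.08 to 9.23 and was not called. Uqcr11 was 1.14 higher in liver and Uqcrb 0.92. Cycs read 6.89, 6.95 and 7.28 in liver and 6.17, 6.10 and 5.98 in the gland, 0.95 higher in liver (SE 0.13, limma adjusted p = 0.000239).

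The complex IV gene Cox8b read 3.99, 3.67 and 4.46 in liver and 6.74, 7.22 and 7.26 in the gland, a fitted difference of -3.03 (SE 0.22, limma adjusted p = 7.10e-06). Its liver mean of 4.04 lay under the line of testing, so the size of this difference is not well fixed. Cox6b2 was lower in liver, with a difference of -1.91 (SE 0.19, limma adjusted p = 4.89e-05). The forms known as those of liver and most tissues, Cox6a1 and Cox7a2, were also lower in liver, with differences of -1.13 (SE 0.09, limma adjusted p = 1.08e-05) and -1.02 (SE 0.11, limma adjusted p = 5.73e-05). Cox7a1 differed by -0.89, also with a liver mean (3.78) under the line. Cox7a2l, low in the lactating gland, was 0.57 higher in liver. Cox4i1 was not called, at 7.67 to 8.19 in liver and 7.68 to 7.99 in the gland.

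In ATP synthase, Atp5c1 was 0.75 and Atp5md 0.68 higher in liver, and Atp5l differed by -0.93. Atp5a1 differed by -0.30 (limma adjusted p = 0.0286), a call lost without liver replicate 1 or any of the 3 gland arrays, and its sign turned with equal ribosomal medians. With that scale 40 genes were higher in liver and 6 lower, and after quantile normalization 14 were higher and 32 lower. On all 3 scales 14 genes were higher in liver, 8 of them complex I subunits with Ndufa6, Ndufa5, Ndufs3 and Ndufs4 among them, and 6 were lower: Cox6a1, Cox6b2, Cox7a2, Cox8b, Ndufa1 and Uqcrc2.

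**Figure D5:**
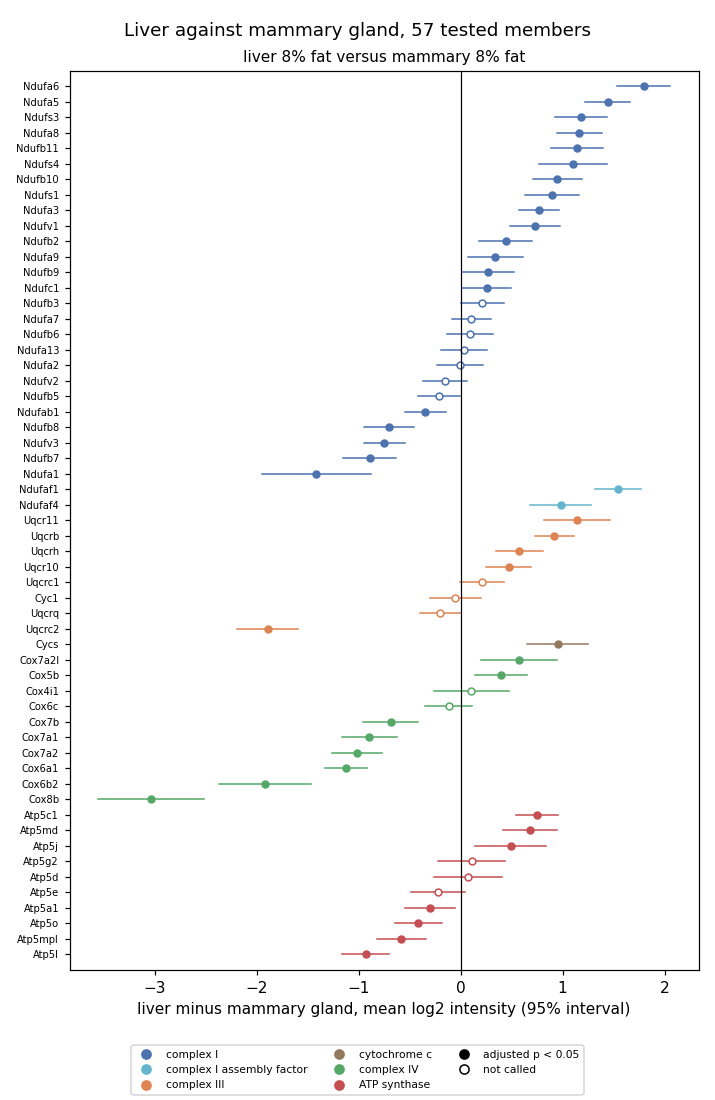
Difference in mean log2 intensity between liver and mammary gland on 8% fat (liver minus gland, 3 arrays each) for the 57 tested genes, grouped and coloured by complex, with 95% intervals (bars). Filled points have an adjusted p under 0.05: Ndufa6 was highest in liver (1.79) and Cox8b lowest (-3.03), and 6 of 10 complex IV genes were lower in liver.

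Other genes of oxidative metabolism were compared between pregnancy day 17 and lactation day 9, where 31.9% of all probe sets were lower and 32.2% higher. Of bright probe sets 48.4% were lower and 18.4% higher. Of 4 subunits of succinate dehydrogenase (complex II), which was not among the 69 genes, 3 fell: Sdha by 0.65, Sdhc by 0.63 and Sdhd by 0.62, and with equal ribosomal medians these changes were 0.05, 0.07 and 0.08. Among 10 measured assembly factors 6 fell and none rose, with Coa3, a factor for complex IV, falling by 1.97 and the copper chaperone Cox17 by 0.85, while with equal ribosomal medians 1 fell and 4 rose. Of 11 genes that feed electrons to coenzyme Q or make it, 4 fell and 3 rose. Gpd2, the mitochondrial glycerol-3-phosphate dehydrogenase, fell by 2.70 (limma adjusted p = 1.21e-08), Etfb, which takes electrons from fatty acid oxidation, fell by 1.80, and Dhodh of pyrimidine synthesis rose by 1.06. The Gpd2 mean on lactation day 9 (3.62) lay under the line of testing, so the size of its fall is not well fixed. Of 10 carriers and uncoupling proteins 4 fell and 2 rose, and Slc25a4, an ADP/ATP carrier gene, fell by 2.63 (limma adjusted p = 8.04e-10). Slc25a5, another ADP/ATP carrier gene of the list, was not called. It was 0.26 higher on lactation day 2 than on pregnancy day 17 (limma adjusted p = 0.0493).

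Over the same interval 31.9% of all probe sets were lower and 32.2% higher, and of bright ones 48.4% and 18.4%. Of 12 citrate cycle genes 6 fell and 2 rose. With equal ribosomal medians 2 fell and 4 rose. Citrate synthase (Cs) rose by 1.18 (limma adjusted p = 5.02e-08) and Idh3a by 0.84, while Sucla2 fell by 1.26, Dlst by 1.22 and Ogdh by 1.02. Of 18 import and chaperone genes 11 fell and 1 rose, of 46 mitochondrial ribosomal protein genes 20 fell and 4 rose, and of 13 regulators of mitochondrial biogenesis 2 fell and 2 rose. With equal ribosomal medians the counts were 5 lower and 6 higher, 4 lower and 25 higher, and 0 lower and 8 higher for these 3 lists. Coa3, Gpd2, Etfb, Slc25a4, Sucla2 and Dlst were lower on that scale too. Cs, Idh3a and Dhodh were higher there, where a rise could only grow. As deposited, the shares of falls among citrate cycle and mitochondrial ribosomal genes were near that of bright probe sets, though both lists also hold dimmer genes.

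Between pregnancy days 12 and 17, 26.7% of all probe sets and 31.3% of bright ones were lower. All 4 succinate dehydrogenase subunits fell (Sdha by 0.77, Sdhc by 0.74, Sdhb by 0.64 and Sdhd by 0.54). Of the other lists 5 of 11 electron feeders, 4 of 10 assembly factors, 4 of 12 citrate cycle genes, 15 of 46 mitochondrial ribosomal genes, 2 of 13 regulators, 2 of 18 import genes and 1 of 10 carriers fell. In liver 39.7% of all probe sets and 49.8% of bright ones were higher than in the gland. All 4 succinate dehydrogenase subunits, 9 of 10 assembly factors and 31 of 46 mitochondrial ribosomal genes were higher. Of 11 electron feeders 9 were higher and 1 lower, of 12 citrate cycle genes 7 and 3, and of 10 carriers 2 and 5. Cs was among the 3, with a difference of -3.80 (limma adjusted p = 3.92e-08). The assembly factor Foxred1 (4.20) and the electron feeder Coq4 (4.14) had gland means under the line of testing. Both were tested only through liver, where they are high. Idh3a, Ucp1, Ucp3, Vdac1 and Ckmt1 had liver means under the line and passed only through the gland. The counts of these 4 lists follow in part from that choice. After quantile normalization 3 of the 4 subunits, 5 of the assembly factors and 18 of the ribosomal genes were higher, and 1 assembly factor and 8 ribosomal genes were lower. On 40% against 8% fat, 0 genes of the 8 lists were called.

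Several genes had more than 1 probe set, and these did not always move together. A second probe set of Cyc1 was 0.76 higher on lactation day 9 than on pregnancy day 17, at 6.39 ± 0.17 against 5.63 ± 0.24 (SD, n = 4), while the brightest fell by 0.49. A second one of Ndufb6 was 0.57 higher where the brightest fell by 0.87, and of 2 for Atp5c1 only the brighter fell. For Ndufb2 another probe set differed by -0.74 in liver where the brightest was 0.44 higher. Among the members, 51 of 69 probe sets carry the plain name that marks probes for a single transcript. Of the 40 plain ones tested 12 were lower on lactation day 2 than on pregnancy day 17, and of the 16 others 10 were, among them Atp5g2, Atp5md, Cox4i1 and Ndufa5, of which the first 3 carry the ending for families of similar sequences. Such probe sets can read transcripts of related genes together, and these were not told apart.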

How the data were processed

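The deposited table holds an intensity per probe set and array on a linear scale, made by the authors with GCRMA, per the submitters' processing notes; its version is not given in the sources used here, nor whether the arrays were normalized as 1 set. Of 12488 probe sets, 66 controls were left out. Values were set to at least 1 (208 lay below) and taken as log2. Probe sets were tested where the highest group mean in a fit reached the median of all values (log2 4.22, intensity 18.6), with limma 3.58.1 in R 4.3.3 (lmFit and eBayes) and Benjamini-Hochberg adjustment over all probe sets tested. The time course was 1 fit of 20 arrays, the diets 1 of 9, and liver against gland 1 of 6. The number of arrays limits the precision. The scripts were tested on simulated data. Alternatives covered the filter, pseudocount, scaling, the samples in the fit, the replicate block, probe sets and leaving out each array. The members and lists were chosen with earlier results of these data known. Genes were named by rule: the up to 4 largest rises and falls per comparison, genes of tissue isoforms or a special role, and the up to 4 largest changes of a pathway list; other called genes of a complex were named after their values were seen.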

Additional observations from a re-analysis of the deposited data

Results flagged for a closer look

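In 14 of 185 groups of 4 arrays, over 37 named genes, 1 array lay farther from the others than the 95% limit of Dixon's test, where chance gives about 1 in 20 groups. On pregnancy day 12 this was Cox6c in replicate 1 (log2 12.22). On pregnancy day 17 it was Cox7a2 (10.82) and Ndufa1 (5.33) in replicate 2, and Atp5md (11.84) and Ndufa5 (9.35) in replicate 1. On lactation day 1 it was Atp5g2 in replicate 2 (5.36) and Ndufaf4 in replicate 1 (5.13). On lactation day 2 it was Cox7a1 in replicate 4 (4.29), in a group that spanned 4.26 to 4.29, and Atp5md in replicate 2 (11.22). On lactation day 9 it was Ndufa7 (9.93), Ndufb8 (10.35) and Ndufb6 (8.94) in replicate 1, and Atp5a1 (11.84) and Cox6b2 (8.96) in replicate 2.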

How the results depend on the processing

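With no filter on dim probe sets the rises numbered 18 between pregnancy days 12 and 17, 16 between pregnancy day 17 and lactation day 2, 8 between lactation days 2 and 9 and 18 between pregnancy day 17 and lactation day 9, and 29 genes were lower in liver. With the stricter filter the rises were 2, 3 and 4 for the last 3 of these intervals. With only the 2 groups in the fit, 4 genes rose between pregnancy days 12 and 17. With equal ribosomal medians the rises and falls were 13 and 3 between pregnancy days 12 and 17, 36 and 3 to lactation day 1, 32 and 5 from pregnancy day 17 to lactation day 2, 3 and 7 between lactation days 1 and 2, 13 and 4 between lactation days 2 and 9, 28 and 4 from pregnancy day 17 to lactation day 9, and 40 and 6 for liver. After quantile normalization they were 11 and 4 between lactation days 2 and 9, 9 and 22 from pregnancy day 17 to lactation day 9, and 14 and 32 for liver. With equal ribosomal medians 22 of the 35 falls from pregnancy day 17 to lactation day 9 turned sign, among them Cyc1 (0.21) and Atp5a1 (0.25), and so did 4 of the 16 genes lower in liver, among them Atp5a1 (0.29). Where a gene's probe sets were averaged, Cyc1 also turned on lactation day 9 (0.13). Apart from the construction of the filters, the cause was not tested.

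Leaving out 1 array gave 4 to 7 rises and 5 to 12 falls between pregnancy days 12 and 17, 3 to 5 and 3 to 7 to lactation day 1, and 3 to 4 and 20 to 23 to lactation day 2. It gave 0 to 2 and 7 to 13 between lactation days 1 and 2, 4 to 7 and 8 to 22 between lactation days 2 and 9, 5 to 6 and 32 to 37 from pregnancy day 17 to lactation day 9, 23 to 24 and 15 to 16 for liver, and 0 in both diet comparisons. With the replicate number as a block, rises and falls were 6 and 10, 5 and 4, 4 and 21, 2 and 13, 5 and 15, and 7 and 36 for the stage comparisons in the order of the report, 0 and 0 for both diets, and 24 and 16 for liver. In the time course, same-numbered arrays of different groups deviated with correlations of -0.23 to 0.27, and arrays of other numbers with -0.31 to 0.35. Whether a number stands for a shared batch cannot be told from these ranges.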
